A study of Mus musculus with 2 samples.

Results

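The cells described here were 53 NK cells and granzyme-rich lymphocytes found among 10835 cells that the authors kept from a treated mouse breast tumour, a share of 0.489% (95% exact Clopper-Pearson interval 0.367% to 0.639%). A kept cell was a member when its unique molecular identifiers (UMIs, each counting 1 captured RNA molecule) of Ncr1, Klre1, Klrb1c, Prf1 and Gzma summed to at least 3. Its UMIs of the neutrophil genes S100a8, S100a9, Csf3r and G0s2 also had to be under 2% of all its UMIs, those of the macrophage genes C1qa, C1qb, C1qc and Apoe under 0.3% and those of the epithelial genes Krt8, Krt18, Krt7 and Epcam under 0.1%, with no UMI of Foxp3. They were set against 281 other lymphocytes (2.59% of kept cells, 2.30% to 2.91%), cells outside the member set with at least 2 UMIs of Cd3e, Cd3d, Cd3g, Trac and Trbc2 and the same limits on neutrophil and macrophage genes. Since measured UMIs chose the members, the levels of the 5 rule genes are a description of the choice.

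The study profiled subcutaneous tumours of 4T1, a mouse mammary carcinoma cell line, by droplet-based single-cell RNA sequencing with Chromium Single Cell 3′ v3 chemistry. Its treated group received an agent labelled PCN in the sample record and PATCH in the series text, and its control group received PBS. Both groups were recorded as WT, and strain, age, number of animals, dose, timing and any pooling of tumours were not stated in the sources used here. Counts of the PBS library were not analysed here, so all values are from 1 library of a PCN-treated tumour, intervals cover counting error only, and no p-value is given.

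NK cells are lymphocytes that kill stressed or transformed cells without rearranging an antigen receptor. They read signals from activating and inhibitory surface receptors, and, like cytotoxic CD8 T cells, they kill by releasing granules that hold perforin, which opens the target membrane, and granzymes, the proteases that enter through it. Il-15 and Il-2, read through the receptor chain Il2rb, and Il-12 sustain them, and in tumours they release the chemokines Ccl5 and Xcl1, which attract dendritic cells, and the cytokine interferon gamma.

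The deposited matrix held raw UMI counts of 33696 genes in 12309 barcodes. Of 11643 barcodes the authors listed for the control group, 37 were also barcodes of this matrix, 33 barcodes stood in both lists, and 1 member was among them. Members carried 260080 UMIs in all and 912 to 19207 per cell, with a median of 3201 UMIs and 1642 genes, against a median of 3122 UMIs in other lymphocytes and 3575 in all kept cells. Markers of other cells were near 0 in members for B cells (5 of 6 genes at 0 UMIs), dendritic cells (4 of 6 at 0) and basophils and mast cells (5 of 6 at 0). Fibroblast markers summed to 0.0123% of UMIs in members and 0.868% in other lymphocytes, and neutrophil markers to 0.0784% in members and 0.0704% in other lymphocytes. Cd4 and Cd40lg had no UMI in members, and of the genes that mark type 2 and 3 innate lymphoid cells Areg, Il1rl1 and Il23r had none.

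The rule separated the members from a large empty background. Among kept cells, 10690 had none of the rule-gene UMIs, 80 had 1 and 9 had 2, and 56 had 3 or more, of which 2 failed the neutrophil limit and 1 carried Foxp3. Just inside the threshold stood 1 member with 3 rule-gene UMIs and 2 members with 4, and just outside it 5 cells with 2 such UMIs that met every other limit. The median member had 21 rule-gene UMIs and the highest had 256.

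Gzma, a tryptase-like granzyme, supplied most of these UMIs, with 1140 in 46 members (lowest 0, median 13, highest 179 per cell). Prf1, which encodes perforin, had 144 UMIs in 37 members, with a median of 1 and a highest value of 37. The activating NK receptor gene Ncr1 had 123 UMIs in 33 members, the NK lectin receptor gene Klre1 had 88 in 35, and Klrb1c, which encodes the NK1.1 receptor, had 27 in 17. All 5 genes were present in 9 members, while 7 members had Gzma as their only rule gene and 7 others had no Gzma. The 6 marker genes of the label (Ncr1, Klre1, Prf1, Gzma, Gzmc and Xcl1) were all detected, and together they made up 0.722% of UMIs in members and 0.00927% in other lymphocytes. Gzmc was uneven, as 247 of its 253 UMIs lay in 2 members with 124 and 123 UMIs.

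**Figure D1:**
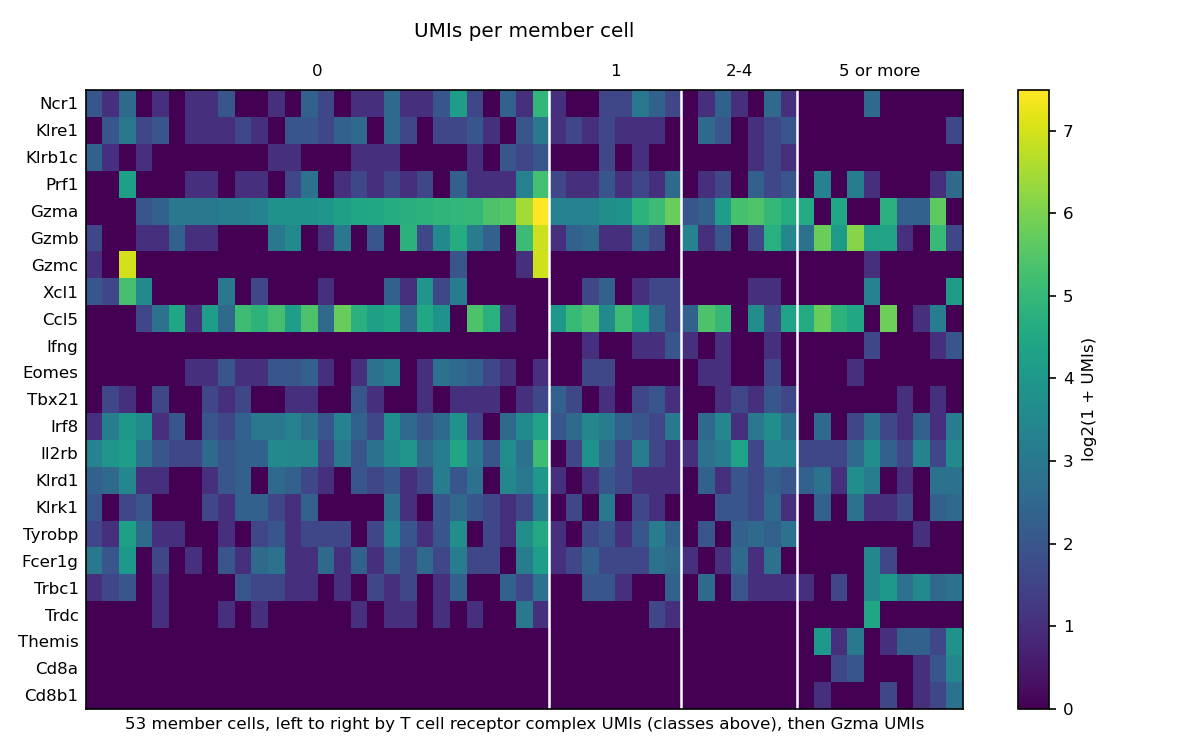
UMIs of 23 genes (rows) in each of the 53 members (columns), coloured on a log2(1 + UMIs) scale and grouped by their UMIs of the T cell receptor complex, with Gzma rising to the right within receptor classes of 0 and 1. Cd8a, Cd8b1 and Themis appear only in the block with 5 or more receptor UMIs, Gzma and Ccl5 in every block, and Gzmc almost only in 2 columns.

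A few transcripts of the library lay almost wholly in these cells. The members held 91.8% of all Ncr1 UMIs in kept cells, 90.4% of Gzma, 88.9% of Klre1 and 84.7% of Prf1, all of which the rule used. Among genes it did not use, they held 131 of 152 Xcl1 UMIs (86.2%, 79.7% to 91.2%), 62 of 73 Eomes UMIs (84.9%, 74.6% to 92.2%), 15 of 19 Ifng UMIs (78.9%, 54.4% to 93.9%) and 558 of 877 Gzmb UMIs (63.6%, 60.3% to 66.8%). For Ccl5 the share was 897 of 2027 (44.3%, 42.1% to 46.4%). They held 2 of 5603 UMIs of Tnf (0.0357%), the inflammatory cytokine, and 351 of 71449 UMIs of the chemokine gene Ccl4 (0.491%), which was abundant in neutrophil-gated and macrophage-gated cells.

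**Figure D2:**
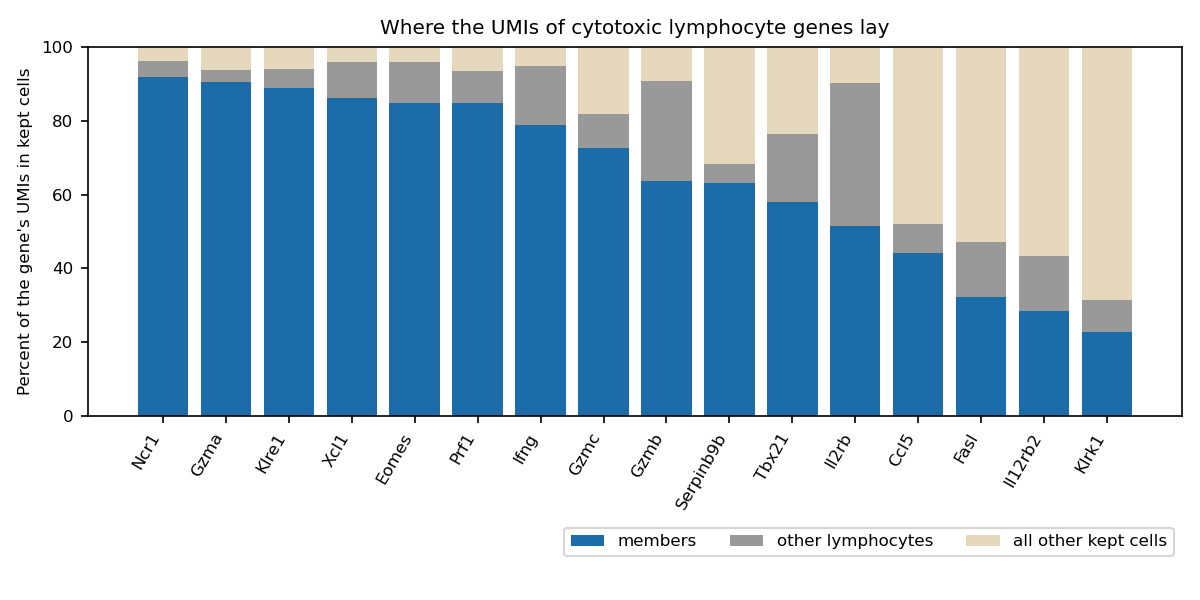
Percent of each gene's UMIs in all 10835 kept cells that lay in members (blue), in other lymphocytes (grey) and in all other kept cells (beige). Bars of Ncr1, Gzma, Klre1, Xcl1, Eomes and Prf1 are above 80% blue, while Ccl5, Fasl, Il12rb2 and Klrk1 have under 50% of their UMIs in members; Ncr1, Klre1, Prf1 and Gzma were used to choose the cells.

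The DNA upstream of 5 of these genes, Gzma, Gzmb, Prf1, Xcl1 and Ncr1, is shown because their transcripts lay mostly in the members and their windows held the motifs searched. The window of Eomes, also concentrated there, held neither motif and is not printed. T-box factors, the family of Eomes and Tbx21, and Runx factors, the family of Runx3, are known regulators of cytotoxic genes, so the windows were searched on both strands for TCACAC, a core of T-box sites, and TGTGGT, a core of Runx sites. These motifs do not overlap in any window shown. Each window is the 250 bases before a RefSeq start on GRCm38.p6, written 5′ to 3′ on the gene's own strand, with matches of either motif or its reverse complement (GTGTGA and ACCACA) in capitals.
Gzma (chr13:113100982-113101231, minus strand): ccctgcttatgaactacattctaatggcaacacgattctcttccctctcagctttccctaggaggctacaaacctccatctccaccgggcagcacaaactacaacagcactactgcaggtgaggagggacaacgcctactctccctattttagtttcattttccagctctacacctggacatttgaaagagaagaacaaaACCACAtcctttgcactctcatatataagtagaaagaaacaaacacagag
Gzmb (chr14:56262335-56262584, minus strand): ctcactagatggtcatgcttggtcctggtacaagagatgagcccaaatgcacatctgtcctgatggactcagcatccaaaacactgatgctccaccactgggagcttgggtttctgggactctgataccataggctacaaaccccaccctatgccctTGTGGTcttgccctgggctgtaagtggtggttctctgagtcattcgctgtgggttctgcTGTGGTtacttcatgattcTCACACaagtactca
Prf1 (chr10:61297586-61297835, plus strand): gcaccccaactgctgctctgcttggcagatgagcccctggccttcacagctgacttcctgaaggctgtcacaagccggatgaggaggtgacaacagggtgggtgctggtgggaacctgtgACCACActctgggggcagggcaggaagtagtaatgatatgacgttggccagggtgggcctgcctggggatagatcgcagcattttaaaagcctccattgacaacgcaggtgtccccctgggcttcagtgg
Xcl1 (chr1:164935523-164935772, minus strand): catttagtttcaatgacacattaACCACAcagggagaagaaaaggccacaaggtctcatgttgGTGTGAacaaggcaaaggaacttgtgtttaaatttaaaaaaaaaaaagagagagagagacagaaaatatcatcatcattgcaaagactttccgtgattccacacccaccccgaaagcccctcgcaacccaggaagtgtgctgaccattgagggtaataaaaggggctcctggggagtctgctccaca
Ncr1 (chr7:4337474-4337723, plus strand): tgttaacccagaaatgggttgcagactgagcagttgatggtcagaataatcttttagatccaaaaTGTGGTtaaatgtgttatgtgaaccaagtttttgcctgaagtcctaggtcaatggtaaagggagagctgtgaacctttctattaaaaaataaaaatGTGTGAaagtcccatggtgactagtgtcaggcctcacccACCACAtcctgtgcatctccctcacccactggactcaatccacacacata
The Gzma window held 1 Runx match, whose first base lay 50 bases upstream of the start, and the Prf1 window held 1 at 130. The Gzmb window held Runx matches at 93 and 34 and a T-box match at 15 bases upstream. Xcl1 had a Runx match at 227 and a T-box match at 187, and Ncr1 had Runx matches at 185 and 50 around a T-box match at 89. Of the 15 genes with the highest ratio of members to other lymphocytes, 12 had windows in the table, and 9 of their 14 windows (64.3%) held the Runx motif, against 4614 of 32851 windows (14.0%) over all genes. The T-box motif was in 5 of those 14 windows (35.7%), against 4039 of 32851 (12.3%). The genes with these windows include Gzma, Klre1, Ncr1 and Prf1, which the rule used to choose the cells, so the shares are a description. The bases after the Gzmb and Prf1 starts were not found in the other transcript annotation used, so those starts rest on RefSeq alone. A match describes letters only, several windows of 1 gene overlap, and binding was not measured.

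T cell receptor transcripts, which the rule did not use, divided the members. Of the 53 members, 28 had no UMI of Cd3e, Cd3d, Cd3g, Trac or Trbc2 (52.8%, 38.6% to 66.7%), 8 had 1 UMI and 17 had at least 2. Those 17 fell into 7 cells with 2 to 4 UMIs and 10 cells with 9 to 50. A UMI of Ncr1, Klre1 or Klrb1c was present in 27 of 28 members with no receptor UMI and 8 of 8 with 1. It was present in 6 of 7 members with 2 to 4 and 2 of 10 with 5 or more. The rule used these genes, and a member without them entered through Prf1 or Gzma. Their counts are thus a description of cells chosen partly by these genes. A UMI of Cd8a or Cd8b1, the CD8 coreceptor genes, was found in 7 of those 10 cells and in 0 of the 43 others (exact upper limit 8.22%). Themis, a T cell signalling adaptor, had 47 UMIs in 8 of the 10 and none in the 43. Depth moved with this division, with a median of 6957.5 UMIs in the 10 cells and 2679.5 in the 28, and its part in the division was not tested. The Ncr1, Klre1 and Klrb1c sum reached 40 UMIs in a receptor-negative cell of 19207 UMIs, while it was 0 in 8 of the 10 receptor-rich cells.

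**Figure D3:**
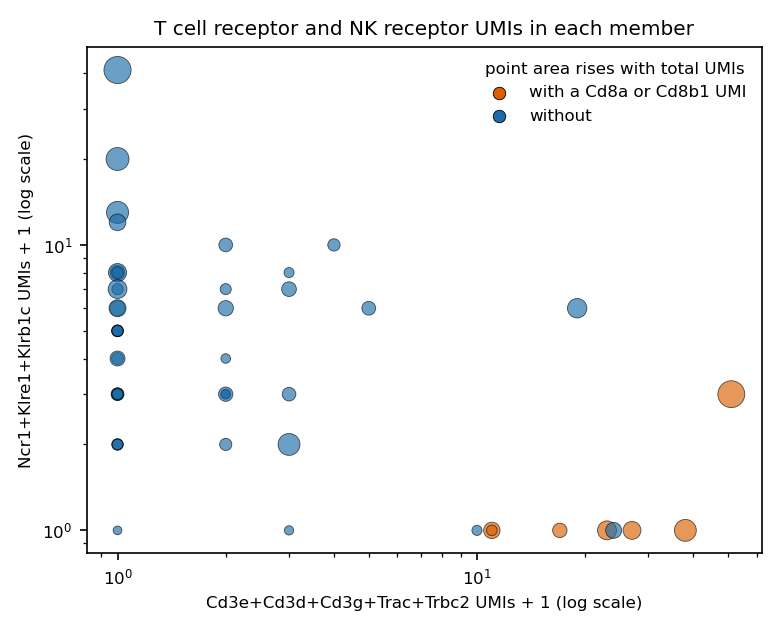
UMIs of the T cell receptor complex (x axis) against UMIs of Ncr1, Klre1 and Klrb1c (y axis) in each member, both plus 1 on log scales, with point area rising with the cell's total UMIs and orange marking a Cd8a or Cd8b1 UMI. All 7 orange points lie on the right, and most points of high NK receptor UMIs stand at 0 receptor UMIs; overlapping points darken.

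The members thus did not all carry transcripts of the NK receptor genes that the rule used. A UMI of the rule genes Ncr1, Klre1 or Klrb1c was found in 41 of the 43 cells with 0 to 4 receptor UMIs. Of the 10 cells with 5 or more, 7 had CD8 transcripts and all but 1 of the 10 had Gzmb. NK receptor genes outside the rule were not missing from the 10. Klrd1 had UMIs in 23 of the 28 receptor-negative members and 8 of the 10, and Klrk1 in 19 of the 28 and 7 of the 10. Trbc1, left out of the receptor sum, was present in both, with 39 UMIs in 18 of the 28 receptor-negative members and 56 UMIs in 8 of the 10. Trdc of the gamma delta T cell receptor, also left out, had 16 UMIs in 10 of the 28, 7 of them in 1 cell. In the 10 it had 20 UMIs, all in 1 cell. The receptor-negative members were thus without the 5 summed genes only. Cd247, the zeta chain that T cell receptors and NK receptors share, had UMIs in 8 of 28 and 5 of 10.

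The 28 receptor-negative members were then compared with the 17 that had 2 or more receptor UMIs, over 2300 genes with at least 20 UMIs in the 2 sums. CPM, each gene's UMIs per 1000000 UMIs of the group's sum, was at least 2-fold higher for 161 genes (7.00%) and at most 0.5-fold as high for 146 (6.35%). Against only the 10 cells with 5 or more receptor UMIs, 211 of 1992 genes (10.6%) were past 2-fold higher and 159 (7.98%) past 2-fold lower. Eomes, the T-box factor that defines mature NK cells, stood at 408 CPM in receptor-negative and 46.5 CPM in receptor-positive members (8.77-fold, 3.53 to 28.1). Rab27b, a small GTPase of secretory vesicles, was at 262 CPM in receptor-negative and 27.9 CPM in receptor-positive members (9.37-fold, 2.95 to 47.7). Serpinb9b, a granzyme inhibitor of the serpin family, was at 354 CPM in receptor-negative and 65.2 CPM in receptor-positive members (5.43-fold, 2.44 to 14.3). Ahnak, a large scaffold protein, was at 447 CPM in receptor-negative and 83.8 CPM in receptor-positive members. Cdk14, a cyclin-dependent kinase, was at 393 CPM in receptor-negative and 74.5 CPM in receptor-positive members. In the first rank were also Gzmd, Gzmc and Ccl1, but their UMIs came nearly all from 1 or 2 cells.

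Themis and 5 other genes named by the rule were lower in receptor-negative members. Themis was at 0 CPM in receptor-negative and 438 CPM in receptor-positive members, at least 18.9-fold lower with a floor of 3 UMIs. Runx2, a Runx family factor, stood at 123 CPM in receptor-negative and 540 CPM in receptor-positive members (ratio 0.228, 0.122 to 0.402). Grap2, the T cell adaptor GADS, was at 69.3 CPM in receptor-negative and 419 CPM in receptor-positive members. Fabp5, a fatty acid binding protein, was at 46.2 CPM in receptor-negative and 410 CPM in receptor-positive members, where 1 cell held 25 of its 44 UMIs. Itpr1, the calcium release channel, was at 46.2 CPM in receptor-negative and 410 CPM in receptor-positive members. Tnfaip8, a tumour necrosis factor induced protein, was at 77.0 CPM in receptor-negative and 382 CPM in receptor-positive members. Cd3e and Cd3g were also among the lowest, as the division itself requires.

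Adaptors and Gzmk differed along the same division. Tyrobp, the DAP12 adaptor of activating NK receptors, had UMIs in 23 of 28 receptor-negative members and 1 of 10 receptor-rich ones, at 831 CPM in the 28 and 13.0 CPM in the 10. Fcer1g, the Fc receptor gamma chain, was at 816 CPM in the 28 and 157 CPM in the 10 (5.21-fold, 2.86 to 10.4). Gzmk, a granzyme of memory CD8 T cells, had 3 UMIs in 3 of the 28 and 13 in 8 of the 10 (ratio 0.136, 0.0249 to 0.496). Ifng had no UMI in the 28 receptor-negative members, while 15 UMIs lay in 10 of the other 25. These were 4 of 8 cells with 1 receptor UMI, 3 of 7 with 2 to 4 and 3 of 10 with 5 or more. Ifng was thus not particular to the 10 receptor-rich cells. Gzmb and Ccl5 were found in both kinds: Gzmb stood at 2071 CPM in the 28 and 2870 CPM in the 10 (ratio 0.722, 0.602 to 0.866). Per cell Gzmb differed more, with UMIs in 19 of the 28 (median 1.5) and 9 of the 10 (median 17.5), which were deeper cells. In the 28, 1 cell held 120 of the 269 Gzmb UMIs. Ccl5 was at 3380 CPM in the 28 and 2478 CPM in the 10 (1.36-fold, 1.15 to 1.63).

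Against the 281 other lymphocytes, 754 of 8021 genes with at least 20 UMIs in the 2 sums (9.40%) were at least 2-fold higher in members and 1527 (19.0%) at most 0.5-fold as high, and the median log2 ratio over all tested genes was 0.01. The lower genes were partly those of fibroblasts: 24 of the 281 other lymphocytes, and 3 of the 53 members, had at least 0.1% of UMIs in Col1a1, Col1a2, Col3a1, Dcn and Lum. Without those 24 cells, called fibroblast-gene cells, 683 of 6887 genes (9.92%) were past 2-fold higher and 924 (13.4%) past 2-fold lower. The other lymphocytes were chosen by T cell receptor UMIs and could hold Foxp3, which 37 of them did. Differences in T cell receptor and regulatory T cell genes thus follow in part from the choice. Gzmb, Nkg7, Serpinb9, Klrd1, Klrc1, Klra7, Tyrobp, Fcer1g, Ccl4, Fasl, Ifng, Tnf, Il2rb, Il2ra, Il12rb2, Il18rap, Runx3, Id2, Tox, Tcf7, Ctla4, Trbc1, Trdc, Cd247, Gzmk, Gzme, Spp1, Bhlhe40, Ctsc, Il10, Il12rb1, Il18r1, Ifngr1 and Bcl2 are named here because of their values, and the other genes come from the rule for named genes.

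Granule genes were higher almost throughout. Outside the rule genes, 13 of 17 cytotoxic granule genes had enough UMIs, 10 of them at least 2-fold higher and 1 (Ctsc, a protease that activates granzymes) at most 0.5-fold as high, with a median log2 ratio of 3.08. Gzmb, the aspartate-cleaving granzyme that triggers apoptosis, was present in 41 of 53 members (median 2, highest 120 UMIs per cell) and stood at 2146 CPM in members and 192 CPM in other lymphocytes (11.2-fold, 9.59 to 13.1). Nkg7, a granule membrane protein, had UMIs in 52 of 53 members and 51 of 281 other lymphocytes (8.44-fold, 6.86 to 10.4). Serpinb9, which protects killer cells from their own Gzmb, stood at 538 CPM in members and 36.3 CPM in other lymphocytes (14.8-fold, 10.5 to 21.2). Its relative Serpinb9b was at 231 CPM in members and 4.03 CPM in other lymphocytes (57.2-fold, 23.2 to 183). The neighbouring granzyme genes Gzmc, Gzmd and Gzme are similar in sequence and how reads were divided among them is not known: Gzmc had 253 UMIs in members and 32 in other lymphocytes, Gzmd 34 in members and 0 in other lymphocytes, and Gzme 17 in members and 0 in other lymphocytes. Without the 2 Gzmc-rich cells, Gzmc had 6 UMIs in members, at 26.2 CPM, against 25.8 CPM in other lymphocytes.

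NK receptor genes were higher as groups. Of 12 tested activating receptors and adaptors outside the rule, 9 were at least 2-fold higher in members and none at most 0.5-fold (median log2 ratio 1.92). Klrk1, which encodes the stress ligand receptor NKG2D, was at 408 CPM in members and 33.1 CPM in other lymphocytes (12.3-fold, 8.52 to 18.1), and Klrb1f, a lectin receptor, had 20 UMIs in members against 3 in other lymphocytes (31.8-fold, 9.43 to 167). Tyrobp (4.32-fold, 3.45 to 5.40) and Fcer1g (3.37-fold, 2.72 to 4.15) were higher too, though both stood above 1000 CPM in cells gated as neutrophils or macrophages. Of 9 tested inhibitory receptors outside the rule, 8 were at least 2-fold higher and none at most 0.5-fold (median log2 ratio 3.59). Klrd1, the CD94 chain, stood at 661 CPM in members and 54.8 CPM in other lymphocytes (12.1-fold, 9.06 to 16.2). Its partner Klrc1, or NKG2A, was at 200 CPM in members and 26.6 CPM in other lymphocytes (7.51-fold, 4.77 to 12.0). The Ly49 genes Klra3 and Klra7, whose products bind major histocompatibility complex class I and whose sequences resemble other Klra genes, had 38 and 24 UMIs in members and 2 and 3 in other lymphocytes. Klri1, a lectin receptor, had 20 UMIs in members and 1 in other lymphocytes, and its relative Klri2 with 30 UMIs in 15 members was not seen in other lymphocytes (at least 47.7-fold higher). A gene detected in members alone could only be called higher, which holds for Gzmd, Klrb1c and Klri2.

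Chemokine and cytokine genes went both ways. Of 11 tested, 4 were at least 2-fold higher, Xcl1, Ccl5, Fasl and Ccl4, and 5 at most 0.5-fold as high, Il17a, Areg, Csf1, Il10 and Tnf (median log2 ratio 0.29). Among all tested genes 9.40% were higher and 19.0% lower. The 2 members with most Ccl4, 62 and 49 of its 351 UMIs, also had the highest shares of neutrophil-gene UMIs among members (1.23% and 0.690%). The source of their Ccl4 UMIs was not tested. Csf1, a macrophage growth factor with 84 UMIs in other lymphocytes and none in members, had 12 without the fibroblast-gene cells, under the minimum of 20 UMIs, which left 4 of 10 tested genes lower. Ccl5 had a median of 15 and a highest value of 56 UMIs per member and stood at 3449 CPM, against 125 CPM in other lymphocytes (27.6-fold, 23.2 to 32.9). Xcl1 was uneven, with 131 UMIs in 21 members and up to 38 in 1 cell, at 504 CPM in members and 12.1 CPM in other lymphocytes (41.6-fold, 24.3 to 76.5). Fasl, the death receptor ligand, was at 108 CPM in members and 10.5 CPM in other lymphocytes (10.3-fold, 5.15 to 21.6). Ccl1, a T cell chemokine among the 15 highest genes, had 30 of its 31 UMIs in 1 member. Il17a, with 279 UMIs in 9 other lymphocytes and none in members, and Areg, with 241 in 28 other lymphocytes and none in members, were at least 19.5-fold and 16.8-fold lower.

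Transcription factors divided into a few higher and more lower genes. Of 25 tested, 6 were at least 2-fold higher (Eomes, Irf8, Tbx21, Runx3, Id2 and Bhlhe40) and 9 at most 0.5-fold as high (median log2 ratio -0.65). The shares over all tested genes were 9.40% higher and 19.0% lower. Eomes was at 238 CPM in members and 6.45 CPM in other lymphocytes (36.9-fold, 17.6 to 89.4). Tbx21, which encodes T-bet, was at 181 CPM in members and 12.1 CPM in other lymphocytes (14.9-fold, 8.21 to 28.8). Irf8, better known from myeloid cells, had UMIs in 48 of 53 members (median 5, highest 19 per cell) with 282 UMIs against 62 in other lymphocytes (21.7-fold, 16.4 to 29.0). Macrophage-gated cells had Irf8 at 321 CPM. Macrophage markers summed to 0.0300% of UMIs in members, but the rule itself limited C1qa, C1qb, C1qc and Apoe. The source of the Irf8 UMIs in members was not tested. Runx3, which maintains cytotoxic lineages, was at 508 CPM in members and 104 CPM in other lymphocytes (4.88-fold, 3.80 to 6.27). Among the lower genes were Tox, a factor of chronically stimulated T cells, at 158 CPM in members and 886 CPM in other lymphocytes (ratio 0.178, 0.127 to 0.243). Tcf7, the stem-like T cell factor, was at 46.1 CPM in members and 193 CPM in other lymphocytes (0.239, 0.122 to 0.426), and Id3, an inhibitor of E proteins, had 1 UMI in members and 122 in other lymphocytes (0.0391, 0.000981 to 0.222).

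Among cytokine receptors, Il2rb and the chains for Il-12 and Il-18 were higher, and Il7r, Il2ra and the Il-33 receptor lower. Of 22 tested, 5 were at least 2-fold higher (Il2rb, Il12rb1, Il12rb2, Il18r1 and Il18rap) and 10 at most 0.5-fold as high (median log2 ratio -0.47). All tested genes together had 9.40% higher and 19.0% lower. Il2rb, the signalling chain for Il-2 and Il-15, had UMIs in 52 of 53 members (median 6, highest 35 per cell), at 1450 CPM in members and 228 CPM in other lymphocytes (6.35-fold, 5.43 to 7.44). Il12rb2 was at 427 CPM in members and 47.6 CPM in other lymphocytes (8.97-fold, 6.48 to 12.5). Il18rap was at 296 CPM in members and 40.3 CPM in other lymphocytes (7.34-fold, 5.08 to 10.7). Il7r, the Il-7 receptor of resting T cells, had 7 UMIs in 4 members and 573 in 191 other lymphocytes (ratio 0.0582, 0.0233 to 0.121). Il2ra, the high-affinity Il-2 receptor chain, was at 34.6 CPM in members and 277 CPM in other lymphocytes, and Il1rl1, the Il-33 receptor, was not seen in members (at least 15.9-fold lower), nor was Il6ra, the Il-6 receptor (at least 4.68-fold lower). Ifngr2, a chain of the interferon gamma receptor, also had no UMI in members against 148 in 106 other lymphocytes (at least 10.3-fold lower), while Ifngr1 had UMIs in 49 members.

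**Figure D4:**
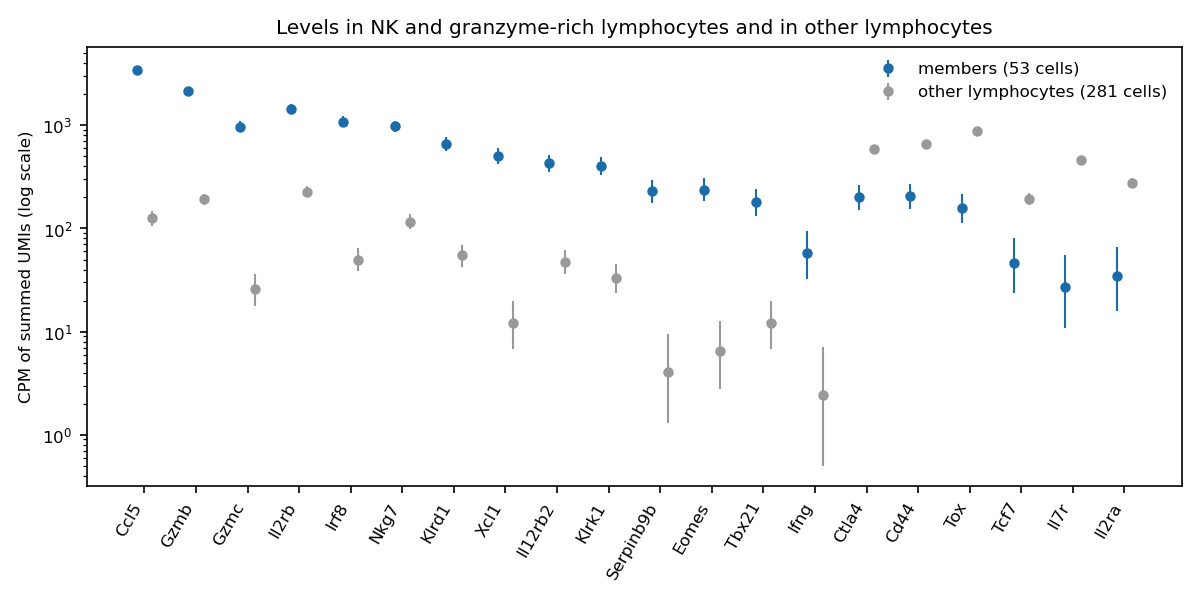
CPM of UMIs summed over 53 members (blue, left of each pair) and over 281 other lymphocytes (grey, right) for 20 genes on a log scale, with exact 95% Poisson intervals that cover counting error only. Ccl5 to Ifng are higher in members, and Ctla4, Cd44, Tox, Tcf7, Il7r and Il2ra are higher in other lymphocytes, except that Cd44 turned (log2 ratio 0.10) against Cd8-bearing ones; Gzmc in members rests on 2 cells.

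Genes of signalling, migration and secretion went both ways. Over all 8021 tested genes 9.40% were higher and 19.0% lower, and the counts of homing and granule exocytosis genes were near those shares. Of 22 genes of cytotoxic signalling, 7 were at least 2-fold higher and 1 at most 0.5-fold (median log2 ratio 0.67), and 4 and 3 without the fibroblast-gene cells. Car2, a carbonic anhydrase, was at 196 CPM in members and 4.03 CPM in other lymphocytes (48.6-fold, 19.5 to 156). Ncald, a calcium sensor, was at 61.5 CPM in members and 9.68 CPM in other lymphocytes (6.36-fold, 2.82 to 14.7). Vav1, an exchange factor of antigen receptor signalling, was 2.68-fold higher (1.42 to 4.92). Aoah, which removes acyl chains from endotoxin, was among the 15 highest genes at 192 CPM in members and 4.03 CPM in other lymphocytes (47.7-fold, 19.1 to 153). Of 22 homing genes, 3 were higher and 6 lower: the integrin Itga2, or CD49b of NK cells, stood at 127 CPM in members and 27.4 CPM in other lymphocytes (4.63-fold, 2.78 to 7.70), while S1pr1, the lymph egress receptor, had 2 UMIs in members and 155 in other lymphocytes (ratio 0.0615, 0.00738 to 0.226) and the lymph node homing receptor Ccr7 had 4 in members and 153 in other lymphocytes, a direction that turned with all barcodes of the matrix (log2 ratio 0.75). Of 14 tested genes of granule exocytosis, Dock8, an actin regulator, was higher (2.38-fold, 1.82 to 3.10), and Cd63, Stx11 and Vamp8 were lower. Without the fibroblast-gene cells Dock8 was 1.87-fold higher, under the 2-fold limit, so that 0 of 14 were called higher, and the ratio of Cd63 was 0.409, against 0.112 with them.

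T cell receptor genes were lower as the choice of the other lymphocytes implies, with a median log2 ratio of -0.55 (0.26 with all barcodes of the matrix), 9 of 23 at most 0.5-fold as high and 1, Trbc1, at least 2-fold higher at 450 CPM in members and 163 CPM in other lymphocytes (2.76-fold, 2.18 to 3.48). Bcl11b, a T lineage factor, had 10 UMIs in members and 233 in other lymphocytes (ratio 0.205, 0.0968 to 0.383). Cd5, a damper of receptor signalling, had 8 in members and 117 in other lymphocytes (0.326, 0.138 to 0.664), and Cd4 had none in members and 91 in 62 other lymphocytes. Of 8 tested checkpoint receptors, 4 were higher and 3 lower (median log2 ratio 0.82, but -1.51 over the genes with at least 50 UMIs). Without the fibroblast-gene cells 2 were higher and 3 lower. With all other lymphocytes, 9.40% of all tested genes were higher and 19.0% lower. Cd244a, the 2B4 receptor, was at 76.9 CPM in members and 8.06 CPM in other lymphocytes (9.54-fold, 4.26 to 22.8). Entpd1, the ectonucleotidase CD39, was at 181 CPM in members and 50.8 CPM in other lymphocytes (3.56-fold, 2.38 to 5.27). Ctla4 was at 204 CPM in members and 587 CPM in other lymphocytes (ratio 0.347, 0.258 to 0.459), Btla had 1 UMI in members and 63 in other lymphocytes (0.0757, 0.00189 to 0.437) and Vsir 4 in members and 66 in other lymphocytes (0.289, 0.0765 to 0.775).

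At equal depth the same genes separated the cells. Every cell was thinned to 1000 UMIs, which left out 2 members, 7 other lymphocytes and 318 of 2549 neutrophil-gated cells. A Ccl5 UMI was then present in 38 of 51 members (74.5%, 60.4% to 85.7%) and 10 of 274 other lymphocytes (3.65%), and in 0 of 2231 neutrophil-gated cells, taken as the level of free RNA, which allows a share of up to 0.134%. These groups had median depths of 3201, 3122 and 1768 UMIs before thinning, and the unthinned shares were 81.1% in members, 8.54% in other lymphocytes and 0.196% in neutrophil-gated cells. Gzmb was found in 54.9% of members, 8.76% of other lymphocytes and 0.0896% of neutrophil-gated cells (77.4%, 14.9% and 0.0785% unthinned). For Irf8 the shares in members, other lymphocytes and neutrophil-gated cells were 68.6%, 2.55% and 1.03% (90.6%, 9.25% and 1.65% unthinned), and for Eomes 33.3% of members and 0 of 274 other lymphocytes, which allows up to 1.09%, with 47.2% and 1.78% unthinned. The shares turned round for Il7r, at 1.96% of members and 43.4% of other lymphocytes (7.55% and 68.0% unthinned), and for Tox, at 11.8% of members and 137 of 274 other lymphocytes (34.0% and 68.3% unthinned). Bcl2, the survival factor, was in 76.5% of members and 49.6% of other lymphocytes (94.3% and 66.5% unthinned).

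**Figure D5:**
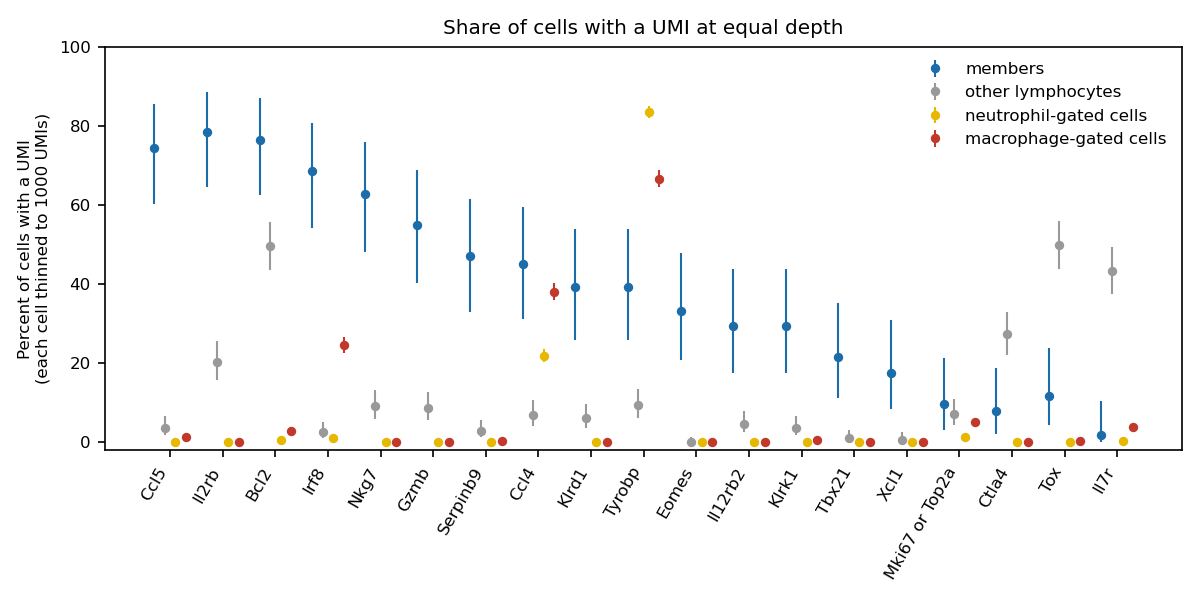
Percent of cells with at least 1 UMI of each gene after every cell was thinned to 1000 UMIs, for members, other lymphocytes, neutrophil-gated and macrophage-gated cells from left to right, with exact 95% binomial intervals. Ccl5, Il2rb, Nkg7, Gzmb and Klrd1 are high in members and near 0 in both myeloid groups, Ccl4 and Tyrobp are also common in myeloid cells, and the intervals of members and other lymphocytes overlap for Mki67 or Top2a.

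Cell cycle genes were higher in the summed counts but rested on few cells. Of 21 genes, 19 were at least 2-fold higher in members and none at most 0.5-fold (median log2 ratio 1.57, and 1.41 without the 2 Gzmc-rich cells). Among them was Stmn1, a tubulin regulator, at 484 CPM in members and 102 CPM in other lymphocytes (4.73-fold, 3.67 to 6.10). Cdk1, the mitotic kinase, was at 119 CPM in members and 25.8 CPM in other lymphocytes. Of the replication helicase genes, Mcm6 was at 181 CPM in members and 46.8 CPM in other lymphocytes. Mcm7 was at 138 CPM in members and 32.3 CPM in other lymphocytes. However, 1 member held 254 of the 1166 cell cycle UMIs and the 3 highest held 41.1%, against 16.0% in the 3 highest other lymphocytes, and the median per cell was 3 in members and 2 in other lymphocytes. At 1000 UMIs per cell, Mki67 or Top2a was present in 5 of 51 members (9.80%, 3.26% to 21.4%) and 20 of 274 other lymphocytes (7.30%, 4.52% to 11.0%), and in 1.26% of neutrophil-gated cells. Unthinned, these shares were 34.0%, 14.6% and 2.94%. At 2000 UMIs per cell they were 10 of 40 members (25.0%, 12.7% to 41.2%) and 24 of 226 other lymphocytes (10.6%, 6.92% to 15.4%). The intervals of members and other lymphocytes overlapped at 1000 and 2000 UMIs but not unthinned (21.5% to 48.3% in members, 10.7% to 19.3% in other lymphocytes).

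Type I interferon response genes were lower or within 2-fold, and the counts for stress and metabolic genes moved with the fibroblast-gene cells. None of 13 tested type I interferon response genes was at least 2-fold higher and 5 were at most 0.5-fold as high (median log2 ratio -0.67). Over all tested genes 9.40% were higher and 19.0% lower, so few of 13 could be looked for among the higher genes. Among the 5 was Ifi27l2a at 76.9 CPM in members and 351 CPM in other lymphocytes (ratio 0.219, 0.133 to 0.343). The antiviral genes Ifi44, Rsad2 and Ifih1 had 0, 1 and 2 UMIs in members against 33, 24 and 27 in other lymphocytes. Of 23 immediate early and heat shock genes, 8 were at most 0.5-fold and 2 at least 2-fold higher (median log2 ratio -0.53). Without the fibroblast-gene cells 1 of 20 tested was at most 0.5-fold and 2 were at least 2-fold higher (median log2 ratio -0.21). Egr1, an early response factor, was at 119 CPM in members and 611 CPM in other lymphocytes (0.195, 0.132 to 0.279), but its ratio was 0.751 without the fibroblast-gene cells, and its log2 ratio was 0.20 as a mean over cells and 0.24 after thinning. Hspa1a and Hspa1b, heat shock genes nearly identical in sequence, had no UMI in members and 44 and 37 in other lymphocytes, and the early response factor Egr2 had 0 in members and 30 in other lymphocytes. Without the fibroblast-gene cells other lymphocytes had 17 of Hspa1a and 13 of Egr2, under the minimum of 20 UMIs, and 24 of Hspa1b (at least 2.19-fold lower in members). Of 23 glycolysis and hypoxia genes, 2 were higher and 4 lower (median log2 ratio 0.18), close to the 9.40% and 19.0% of all tested genes, with Hif1a, the hypoxia factor, at 304 CPM in members and 808 CPM in other lymphocytes (0.376, 0.295 to 0.473; log2 ratio 0.29 against Cd8-bearing lymphocytes), beside Hk2 (hexokinase), P4ha1 (a collagen hydroxylase) and Egln3 (an oxygen sensor) at ratios of 0.347, 0.327 and 0.199. Without the fibroblast-gene cells these ratios were 0.623, 0.366 and 0.156, and 3 genes were higher and 3 lower. In the BCL2 family and death list, Cflar, which blocks death receptor signals, was lower (0.286, 0.145 to 0.511), Bcl2a1b, a survival factor, lower (0.460, 0.289 to 0.700; log2 ratio 1.17 with all barcodes of the matrix) and Mcl1, another, at 0.525 (0.404 to 0.672), with a median log2 ratio of -0.01 over 15 genes. In this list 1 gene was higher and 2 lower, near the 9.40% and 19.0% of all tested genes. Without the fibroblast-gene cells 2 were higher and 3 lower.

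The genes lowest in members were first of all matrix genes. Sparc, a collagen-binding matrix protein, had 1 UMI in members and 1876 in other lymphocytes, and Dcn, Tagln, Mfap5, Ebf1, Rbms3, Bgn, Fbn1 and Lox had none against 311 to 494, with Il17a as the tenth. These UMIs came from few cells, as Dcn was in 23 of the 281, and without the fibroblast-gene cells Sparc had 32 UMIs and Dcn 3. In that comparison the lowest genes were Il17a, Areg, Il1rl1, Tnfsf8, Ifngr2, Sh3bp5, Mmp12, Mmp13, Trib2 and Cd4. Tnfsf8, the CD30 ligand, had 0 UMIs in members and 149 in the remaining other lymphocytes (at least 13.6-fold lower), and Trib2, a pseudokinase, 0 and 98 (at least 8.93-fold lower).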

How the data were processed

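Poly(A) RNA of single cells was captured in droplets (Chromium, 3′ chemistry, per the labels). The authors deposited a matrix of raw UMI counts. Its header names Cell Ranger 8.0.1, so per the file headers that version wrote the counts. The submitters' processing notes also list STAR, and the genome build is not given in the sources used here. Each group has 1 library. The authors' list of kept cells was followed. The members and gene lists were chosen with earlier results of these data known. UMIs were summed over the cells of each group and divided by the group's total as CPM. Ratios carry exact conditional Poisson intervals (95%), and the calls used 0.5 added to each sum, a minimum of 20 UMIs over both sums and a 2-fold limit. A gene at 0 in 1 group was set at a floor of 3 UMIs over the group. The planned comparison of treated with control tumours could not be run. Of 380 listed genes, 373 matched by symbol and 4 by gene ID, and 3 were not found. Named genes were the rule and marker genes, up to 4 per list with the largest absolute log2 ratio, the 15 highest (at least 30 UMIs in members) and 10 lowest (at least 30 UMIs in other lymphocytes), and 8 each way between receptor-negative and receptor-positive members. Neutrophil-gated cells had at least 5% and macrophage-gated cells at least 1% of UMIs in the genes of those limits. Free RNA was not subtracted. A few genes of the lists are not reported here. Scrublet in scanpy 1.11.5 marked 0 cells as doublets, so its threshold set no cells apart, and this does not show that doublets were absent. Leaving out 588 kept cells with the highest 5% of scores was an alternative. Among the 588 were 5 of the 53 members and 17 of the 281 other lymphocytes. The calls were tested on simulated data. Python 3.11.15, numpy 2.4.6, scipy 1.17.1, pandas 2.3.3 and matplotlib 3.10.9 were used.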

Additional observations from a re-analysis of the deposited data

How the results depend on the processing

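The few members of 1 library set the limits: intervals cover molecules, not animals, and Ifng, Gzmd and Trdc rest on under 50 UMIs. The number of members was 48 to 58 over all alternatives, and the share without receptor UMIs was at most 58.3%. Genes lower in members than in other lymphocytes numbered 2308 with all barcodes of the matrix, 349 against the 55 other lymphocytes with Cd8a or Cd8b1, and 924 without fibroblast-gene cells, an alternative chosen after seeing the data. Higher and lower genes were 344 and 866 with a minimum of 50 UMIs, 2512 and 2902 with 1 UMI, and 337 and 440 after thinning to 1000 UMIs, settings that change how many genes can be counted. Between receptor-negative and receptor-positive members they were 269 and 221 as means over cells, 47 and 26 with a minimum of 50 UMIs, 2438 and 2765 with 1 UMI, and 39 and 22 after thinning. Gzmb was in 77.4% of members unthinned, and Mki67 or Top2a in 25.0% at 2000 UMIs and 34.0% unthinned. Directions turned for Bcl2a1b (log2 ratio 1.17), Ccr7 (0.75) and the median of the T cell receptor list (0.26) with all barcodes, for Egr1 as a mean over cells (0.20) and after thinning (0.24), for Cd44 (0.10) and Hif1a (0.29) against Cd8-bearing lymphocytes, and for the median of checkpoint receptors (-1.51) with a minimum of 50 UMIs. The causes were not tested. Over 92 named genes and 16 settings, 1234 log2 ratios stayed within the counting interval of the reported value and 137 left it without a called gene turning direction. No paired analysis was possible because each group has 1 library.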

Other observations

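The 28 members with no UMI of Cd3e, Cd3d, Cd3g, Trac or Trbc2 differed in their Ccl5 UMIs. This split was chosen after their values were seen and is given as a description. Of the 28, 6 had no Ccl5 UMI although they were deep, with 4867 to 19207 UMIs (median 10425.5), and 22 had Ccl5, with 912 to 7952 UMIs (median 2468.5). The 6 cells without Ccl5 had 0.0333 times (0.00894 to 0.0875) the Ccl4 level and 0.133 times (0.0465 to 0.312) the Eomes level of the 22. Itga2, the integrin CD49b, had no UMI in the 6 cells and 17 in the 22, whereas Itga1, the integrin CD49a known from tissue-resident innate lymphoid cells, had 12 UMIs in 5 of the 6 and 3 in 2 of the 22 (4.17-fold, 1.12 to 23.0). Without the 2 Gzmc-rich cells, Itga1 had 3 UMIs in 3 of the remaining 4. Tnfrsf9, the costimulatory receptor 4-1BB, stood at 723 CPM in the 6 and 106 CPM in the 22 (6.85-fold, 3.07 to 18.0) and was in 6 of 6 and 5 of 22 cells. Ncr1, Il2rb and Klrd1 were in all 6, and in 15, 22 and 17 of the 22. None of these shares of cells was taken at equal depth. All UMIs of Gzmd and all 252 receptor-negative UMIs of Gzmc lay in these 6 cells. Without the 2 Gzmc-rich cells Gzmc had 5 UMIs and Gzmd 0 there, while Tnfrsf9 still had 18 UMIs in 4 of 4 cells.

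The 2 Gzmc-rich members differed from each other. The cell with 124 Gzmc UMIs, of 12294 in all, had no Gzma or Gzmb UMI but 18 of Prf1, 38 of Xcl1, 30 of Ccl1 and 101 of Spp1, the osteopontin gene. The cell with 123 Gzmc UMIs, of 19207 in all, had 179 of Gzma, 120 of Gzmb, 37 of Prf1, 43 of Spp1 and 254 of cell cycle genes. Another member of 9244 UMIs had 20 UMIs of Trdc, the constant segment of the gamma delta T cell receptor, beside 18 of the T cell receptor complex, 5 of Ncr1, 9 of Xcl1 and 10 of Fcer1g, with no Cd8a, Cd8b1 or Themis.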
